A study of Mus musculus with 7 samples.

Results

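The genes described here are 10 that a red cell precursor uses to become and to remain erythroid: the transcription factors Gata1, Gata2, Klf1, Tal1, Nfe2 and Gfi1b, the cofactors Zfpm1 and Lmo2, and the receptors Epor and Tfrc. They were taken by name from a deposited table of 24341 genes, and all 10 were found in it. RNA-seq had been carried out on B-cell precursor (BCP) cells from the spleens of Eμ-Ret mice, which are hemizygous for an oncogenic Ret fusion gene driven by the immunoglobulin heavy chain enhancer, on a BALB/c background. Both groups carried the transgene and had no other allele or treatment in the labels: 4 samples came from young mice at the preleukemic stage and 3 from older, moribund mice with overt leukemia, with no age in weeks given in the labels of these samples. Both groups were labelled as FACS-sorted BCP cells. The study's methods describe a high purity for preleukemic sorts in general and an in vitro use of leukemic spleen cells mostly without enrichment. Whether the 3 leukemic RNA samples were enriched with the same gate, and how pure each of the 7 samples was, is not settled by the sources used here. No transgene-negative sample was among the 7.

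Red cells arise from progenitors in which GATA-2 is active and is then replaced by GATA-1, an exchange known as the GATA switch. GATA-1 works with the cofactor FOG-1 (Zfpm1), with a complex built on the bridging protein LMO2 and the basic helix-loop-helix factor TAL1, and with KLF1, which drives adult globin and red cell membrane genes. Erythropoietin, through its receptor EPOR, keeps progenitors alive until they become erythroblasts, and the transferrin receptor TFRC brings in the iron for heme. In mice the spleen is a site of red cell production alongside the bone marrow. GATA1, TAL1, NFE2, FOG-1 and GFI1B are also used by megakaryocytes, LMO2 is present in B-cell precursors and endothelium, and TFRC is made by dividing cells of many kinds, so these last genes are not markers of red cells alone.

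Of the 10 genes, 8 had a window from 250 bases before to 50 bases after a gene start in RefSeq on GRCm38.p6, in 11 windows in all. Lmo2 and Nfe2 had none. Because members of this group rose together, the windows were searched on both strands for the hexamers AGATAA and TGATAA, the usual core of a GATA site. The windows of 4 genes, Klf1, Epor, Tal1 and Gfi1b, held 1 each, that is 4 of the 11 windows, and 18.6% of all 32851 windows in the table held at least 1. They are shown 5′ to 3′ on the strand of the gene, with the hexamer (or its reverse complement) in capitals. In Klf1 it began 80 bases before the start (window chr8:84901732-84902031, plus strand), in Epor 54 (chr9:21963527-21963826, minus strand), in Tal1 205 (chr4:115056176-115056475, plus strand) and in Gfi1b 120 (chr2:28621933-28622232, minus strand).
Klf1: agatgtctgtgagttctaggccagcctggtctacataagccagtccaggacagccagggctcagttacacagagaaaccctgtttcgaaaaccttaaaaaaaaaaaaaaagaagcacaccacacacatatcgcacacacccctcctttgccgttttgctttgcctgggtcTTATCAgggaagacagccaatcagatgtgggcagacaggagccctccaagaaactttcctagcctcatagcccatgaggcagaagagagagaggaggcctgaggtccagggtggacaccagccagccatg
Epor: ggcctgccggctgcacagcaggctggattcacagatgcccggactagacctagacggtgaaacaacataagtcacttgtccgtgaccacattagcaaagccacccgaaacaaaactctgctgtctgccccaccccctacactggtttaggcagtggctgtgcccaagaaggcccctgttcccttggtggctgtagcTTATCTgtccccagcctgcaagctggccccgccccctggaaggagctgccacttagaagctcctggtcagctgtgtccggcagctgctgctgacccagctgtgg
Tal1: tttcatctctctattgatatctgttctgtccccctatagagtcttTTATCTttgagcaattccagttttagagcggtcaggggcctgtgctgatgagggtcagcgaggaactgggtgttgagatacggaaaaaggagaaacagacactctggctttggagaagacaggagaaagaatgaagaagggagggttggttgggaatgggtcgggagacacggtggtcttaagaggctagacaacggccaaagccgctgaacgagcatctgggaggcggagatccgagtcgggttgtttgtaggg
Gfi1b: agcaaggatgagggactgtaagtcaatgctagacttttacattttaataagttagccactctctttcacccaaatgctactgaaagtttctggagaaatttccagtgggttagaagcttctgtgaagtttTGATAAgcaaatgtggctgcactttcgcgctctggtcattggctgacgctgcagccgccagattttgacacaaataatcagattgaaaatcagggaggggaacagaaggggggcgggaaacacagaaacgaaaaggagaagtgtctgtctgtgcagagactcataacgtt
The windows of Gata1, Gata2, Zfpm1 and Tfrc and the second window of Tal1 held neither hexamer. The shorter letters CACCC, the core bound by KLF1 and related factors, were in 9 of the 11 windows and in 57.5% of all windows, and the E-box CAGCTG, a form bound by TAL1 partners, was in windows of Epor and Gata2, against 16.3% of all windows. These matches describe letters in the reference and are not binding sites measured in these cells.

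Values are FPKM, fragments per kilobase of transcript scaled to the mapped fragments of the sample, as deposited. Low values stepped in whole fragments, from which a depth of 13450000 to 16350000 fragments per sample was read. FPKM summed to between 507355 and 539887 in leukemic and between 448022 and 471447 in preleukemic samples. B-cell precursor markers were present throughout, with a summed level over 18 genes of 3832 to 6006 FPKM in leukemic and 7325 to 9116 FPKM in preleukemic samples. Enpep, which encodes the BP-1 antigen of the gate described for preleukemic cells, had 19.1, 102 and 77.2 FPKM in leukemic replicates 1 to 3, while it lay between 134 and 210.2 FPKM in preleukemic samples (log2 fold change -1.70, adjusted p = 0.0688 by limma). RNA of late red cell precursors was present beside them. Hbb-b1, an adult β-globin gene, had 3293, 17338 and 8070 FPKM in leukemic replicates 1 to 3, 1577 FPKM in preleukemic replicate 1 and 129 to 168.5 FPKM in preleukemic replicates 2 to 4. Hbb-bs, listed at the same position, was at the floor of the table in all 7 samples, so the split of reads between near-identical globin genes is uncertain. Preleukemic replicate 1 therefore stood apart from its group in red cell RNA, and the fold changes of the 9 tested members are also given without it. In bulk samples of this kind, fewer cells of a type and less RNA per cell cannot be told apart.

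All 10 genes were wholly separated between the groups, the lowest of 3 leukemic values lying above the highest of 4 preleukemic values, as for 14.9% of all genes tested. Of the 10, 9 had enough signal to be tested (an FPKM sum over the 7 samples of at least 10), and all 9 rose in leukemic samples at an adjusted p under 0.05 (limma on log2(FPKM + 1), 3 against 4 samples, Benjamini-Hochberg adjustment over 10541 genes), against 8.47% of all genes tested that were called higher and 6.26% that were called lower. The split over all genes depended on the scaling: 57.5% of calls were higher as reported, 45.4% after quantile normalization and 23.5% with each sample scaled to the same total, and the 9 genes rose under all 3, by 1.14 (Tfrc) to 4.30 (Klf1) on the log2 scale under the last. Their log2 fold changes ran from 1.30 to 4.02 with a median of 2.70, beside a median of -0.02 over all genes tested. Gata2, which summed to 1.89 FPKM, was not tested. Gata1, Gfi1b and Epor summed to under 10 FPKM over the preleukemic samples and passed the filter through their leukemic values, so the count of 9 is in part set by the filter. Because 1 is added to each value, these fold changes understate the change of low genes.

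**Figure D1:**
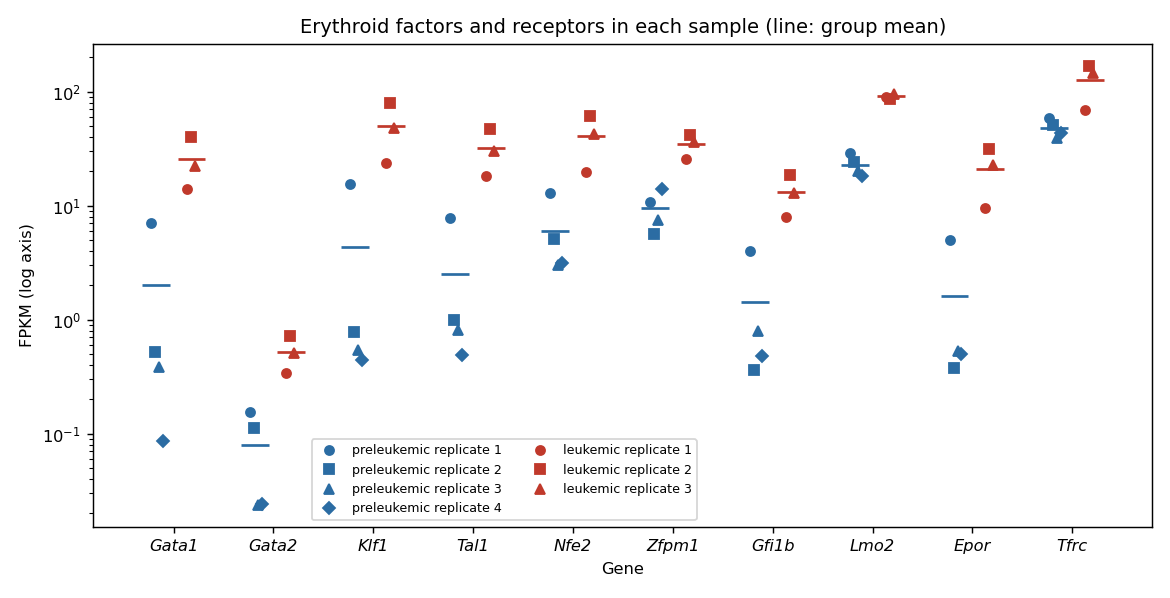
FPKM (log axis) of the 10 genes in each of the 7 samples, with blue for preleukemic, red for leukemic, a symbol per replicate number and a line for the group mean. In each gene all red points lie above all blue points, and in Gata1, Klf1, Tal1, Gfi1b and Epor preleukemic replicate 1 (blue circle) lies well above the other 3 preleukemic samples.

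Among the nuclear factors, Klf1 (chromosome 8, 84901928 to 84905295), the erythroid Krüppel-like factor, had 23.8, 78.8 and 48.1 FPKM in leukemic replicates 1 to 3. In preleukemic replicates 1 to 4 it had 15.4, 0.771, 0.544 and 0.441 FPKM. The groups did not overlap, but preleukemic replicate 1 was 20.03 times the next highest preleukemic sample and the lowest leukemic value was only 1.54 times it. The log2 fold change of 4.02 (standard error, SE, 0.89, adjusted p = 0.0284 by limma) was the largest of the 9. Without preleukemic replicate 1 it was 4.86 (limma adjusted p = 0.00482).

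Gata1 (chromosome X, 7959260 to 7967910), the central erythroid and megakaryocytic factor, had 14.1, 40.0 and 22.3 FPKM in leukemic replicates 1 to 3. In preleukemic replicates 1 to 4 it had 7.09, 0.524, 0.383 and 0.0863 FPKM. The leukemic mean of 25.5 ± 13.2 FPKM (SD, n = 3) stood against 2.02 ± 3.38 (SD, n = 4), and most of the preleukemic mean came from replicate 1. Gata1 rose by 3.55 on the log2 scale (SE 0.71, adjusted p = 0.0224 by limma).

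Gata2 (chromosome 6, 88198664 to 88207032), the factor of earlier progenitors and of mast cells, was low in every sample. It had 0.343, 0.721 and 0.508 FPKM in leukemic replicates 1 to 3, against 0.156, 0.113, 0.0237 and 0.0241 FPKM in preleukemic replicates 1 to 4. Read back through the depth, these values stand for about 16, 35 and 26 fragments in the leukemic samples and about 7, 5, 1 and 1 fragments in the preleukemic samples. The groups did not overlap here either. Per unit of depth the leukemic samples held 6.59 times as many Gata2 fragments (95% exact interval 3.70 to 12.6, counting error only, 77 against 14 fragments). In a fit without the filter on low values the log2 fold change of Gata2 was 0.49 and did not pass (limma adjusted p = 0.0593).

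Gata1 exceeded Gata2 in every sample. On the scale of log2((Gata1 + 1)/(Gata2 + 1)) the leukemic samples had 3.49, 4.57 and 3.95 and the preleukemic samples had 2.81, 0.45, 0.43 and 0.09. The difference between the group means was 3.06, the groups did not overlap, and the difference did not pass (exact permutation test, two-sided, 35 possible labelings, p = 0.0571, adjusted over 2 ratios 0.0571, smallest possible p 0.0286). Preleukemic replicate 1, with 2.81, was nearer to the leukemic than to the other preleukemic samples, and without it the difference was 3.68. Since Gata2 stayed under 1 FPKM, below the 1 that was added, this ratio followed Gata1 closely.

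Tal1 (chromosome 4, 115056426 to 115071755), the basic helix-loop-helix partner of GATA-1, had 18.3, 46.9 and 30.1 FPKM in leukemic replicates 1 to 3, against 7.81, 0.991, 0.808 and 0.493 FPKM in preleukemic replicates 1 to 4. Its log2 fold change was 3.55 (SE 0.63, adjusted p = 0.0172 by limma). Tal1 shared the sample order of Gata1 and Klf1, with leukemic replicate 2 highest, then 3, then 1, then preleukemic replicate 1.

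Gfi1b (chromosome 2, 28609450 to 28621982), a transcriptional repressor of the erythroid and megakaryocytic lineages, had 7.88, 18.6 and 12.9 FPKM in leukemic replicates 1 to 3. In preleukemic replicates 1 to 4 it had 4.02, 0.360, 0.790 and 0.482 FPKM. It rose by 2.70 on the log2 scale (SE 0.49, adjusted p = 0.0175 by limma). The other 3 preleukemic samples were all below 1 FPKM, as they were for Gata1, Gata2, Klf1, Tal1 and Epor.

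Nfe2 (chromosome 15, 103248212 to 103258403), the large subunit of a factor that acts on globin and platelet genes, kept a higher level in the preleukemic samples. It had 19.8, 60.9 and 42.4 FPKM in leukemic replicates 1 to 3, against 13.0, 5.06, 3.00 and 3.13 FPKM in preleukemic replicates 1 to 4. It was thus measured at 3 FPKM or more in the preleukemic samples with little red cell RNA. Its log2 fold change was 2.64 (SE 0.52, adjusted p = 0.0216 by limma).

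Of the cofactors, Zfpm1 (chromosome 8, 122282141 to 122337247), which encodes FOG-1, had 25.8, 41.4 and 36.0 FPKM in leukemic replicates 1 to 3. In preleukemic replicates 1 to 4 it had 10.8, 5.59, 7.52 and 14.0 FPKM. It was the only one of the 10 genes for which preleukemic replicate 1 was not the highest of its group. It rose by 1.80 on the log2 scale (SE 0.29, adjusted p = 0.0151 by limma).

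Lmo2 (chromosome 2, 103957995 to 103981878), the bridge between TAL1 and GATA-1, had the most even leukemic values. It had 89.5, 87.0 and 95.8 FPKM in leukemic replicates 1 to 3, against 29.1, 23.9, 20.2 and 18.1 FPKM in preleukemic replicates 1 to 4. The leukemic values spanned 1.10-fold, against 1.60-fold to 3.31-fold for the other 9 genes, and leukemic replicate 2, highest in those 9 genes, was the lowest here. The lowest leukemic value was 2.99 times the highest preleukemic value, the widest gap of the 10. The log2 fold change of 1.97 (SE 0.16) had the smallest adjusted p of the 9 (limma adjusted p = 0.00426).

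Of the receptors, Epor (chromosome 9, 21958899 to 21963576), which binds erythropoietin, had 9.47, 31.4 and 22.7 FPKM in leukemic replicates 1 to 3. In preleukemic replicates 1 to 4 it had 5.04, 0.379, 0.534 and 0.496 FPKM. Its log2 fold change was 3.26 (SE 0.61, adjusted p = 0.0185 by limma). Epor followed the pattern of Klf1 and Gata1, with preleukemic replicate 1 at 9.44 times the next preleukemic sample.

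Tfrc (chromosome 16, 32608896 to 32632794), which takes up transferrin-bound iron, was high in every sample. It had 68.5, 168 and 145.2 FPKM in leukemic replicates 1 to 3, against 59.2, 51.2, 39.3 and 43.1 FPKM in preleukemic replicates 1 to 4. Leukemic replicate 1 was only 1.16 times the highest preleukemic sample, the narrowest gap of the 10. Its log2 fold change of 1.30 (SE 0.31, adjusted p = 0.0334 by limma) was the smallest of the 9. A list of 16 cell division genes is given beside Tfrc because dividing cells of many kinds make it. The list summed to 1697 to 2799 FPKM in leukemic and 1094 to 1863 FPKM in preleukemic samples. Its median log2 fold change was 0.55, and 4 of the 16 genes had leukemic values wholly above the preleukemic ones, beside 14.9% of all genes tested. Of the 16, 1 gene, Mki67, was called higher (log2 fold change 0.74, limma adjusted p = 0.0316), beside 8.47% of all genes tested. The part of cell division in the rise of Tfrc was not tested.

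The log2 ratio of Epor to Tfrc, with 1 added to each, was -2.73, -2.39 and -2.63 in leukemic replicates 1 to 3 and -3.32, -5.24, -4.72 and -4.88 in preleukemic replicates 1 to 4. The groups did not overlap, and their difference of 1.96 did not pass (exact permutation test, two-sided, p = 0.0571, adjusted over 2 ratios 0.0571). With a pseudocount of 0.1 in place of 1 the difference was 2.96, with the same p in the exact permutation test.

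**Figure D2:**
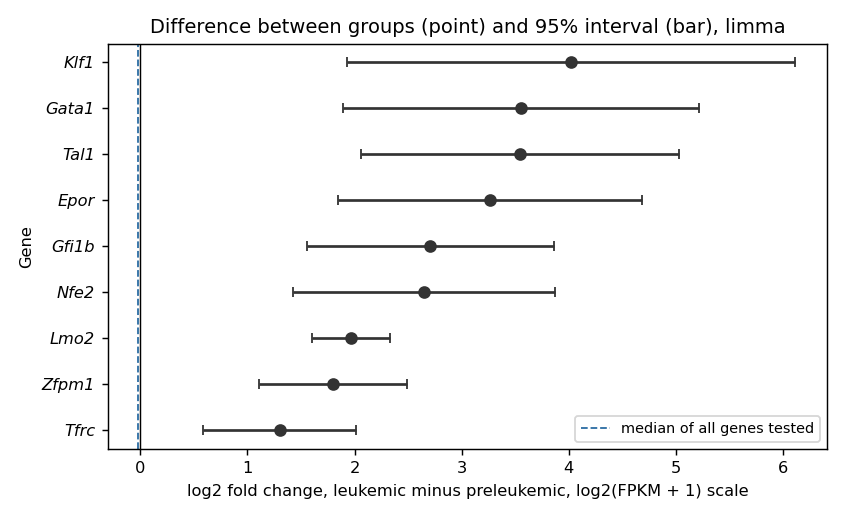
Log2 fold change of the 9 tested genes (leukemic minus preleukemic, on the log2(FPKM + 1) scale), with bars for the 95% interval of the limma fit and a dashed line for the median of all genes tested, at -0.02. Klf1 is highest at 4.02 with a wide interval (1.93 to 6.11), Lmo2 has the narrowest interval (1.60 to 2.33) and Tfrc is lowest at 1.30.

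The calls depended on which samples were kept. Without preleukemic replicate 2, 3 or 4 in turn, 2, 1 and 2 of the 9 genes passed, and the calls over all genes fell from 1553 to 443, 271 and 149 in the same fits. Lmo2 passed in all 3 fits (limma adjusted p = 0.0202, 0.0218 and 0.0241), and Zfpm1 passed in the first and the last (limma adjusted p = 0.0388 and 0.0403). Without preleukemic replicate 1, the sample with the most red cell RNA of its group, 8 of 9 passed, and Tfrc did not (limma adjusted p = 0.054). Over all genes 932 were called in that fit. Without leukemic replicate 2, Klf1 and Tfrc did not pass, and without leukemic replicate 3, Klf1, Nfe2 and Tfrc did not. The calls over all genes were 1620 and 1402 in the same fits. With no filter on low values, which raises the number of genes tested to 24341, Lmo2 alone passed (limma adjusted p = 0.0142). Of those 24341 genes, 706 were called. All 9 log2 fold changes stayed above 0 in each of these fits. With preleukemic replicate 1 left out they were 4.86 for Klf1, 4.21 for Gata1, 4.13 for Tal1, 3.77 for Epor, 3.13 for Gfi1b, 3.04 for Nfe2, 2.09 for Lmo2, 1.88 for Zfpm1 and 1.40 for Tfrc.

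**Figure D3:**
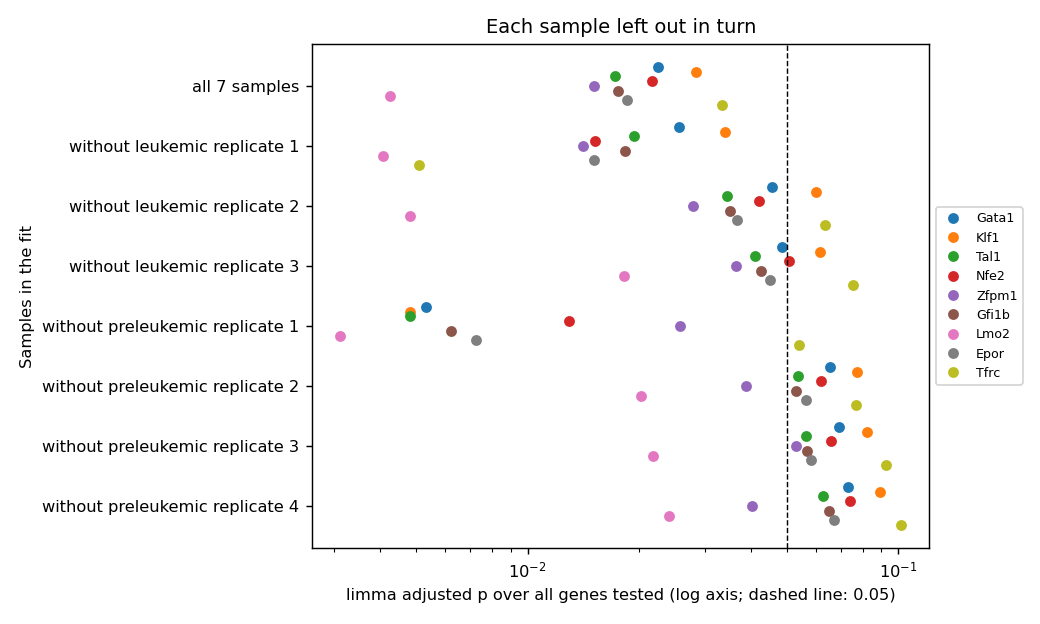
Limma adjusted p (log axis) of the 9 tested genes with all 7 samples and with each sample left out in turn, with a dashed line at 0.05 and points shifted vertically within a row so that they can be told apart. Lmo2 stays left of the line in every row, while without preleukemic replicate 2, 3 or 4 most genes move to its right.

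To describe the members against a gene of finished red cells, each was divided by Slc4a1, the band 3 anion exchanger of the red cell membrane, in the same sample. Slc4a1 was chosen after its values were seen, and the ratios are given without a test. Slc4a1 had 175, 597 and 365 FPKM in leukemic replicates 1 to 3, against 75.6, 4.49, 2.54 and 2.71 FPKM in preleukemic replicates 1 to 4. Klf1 itself spanned 179-fold over the 7 samples, but per 100 FPKM of Slc4a1 it spanned 1.63-fold. It had 13.7, 13.2 and 13.2 in leukemic replicates 1 to 3 and 20.4, 17.2, 21.5 and 16.2 in preleukemic replicates 1 to 4. The leukemic values were all below the preleukemic ones, so Klf1 stood lower against Slc4a1 in leukemic samples, by a small margin.

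Epor, Tal1 and Gata1 also varied far less against Slc4a1 than in FPKM, spanning 4.01-fold, 4.06-fold and 4.75-fold per 100 FPKM of it, against 82.8-fold, 95.1-fold and 463-fold in FPKM. For Gata1 the lowest ratio, 3.18, was that of preleukemic replicate 4, in which Gata1 was at 0.0863 FPKM. Gfi1b had 3.12 to 4.52 in leukemic samples and 5.32 to 31.2 in preleukemic samples, a span of 9.99-fold. A further 4 genes behaved differently. Per 100 FPKM of Slc4a1, Lmo2 had 14.6 to 51.2 FPKM in leukemic samples, 38.5 in preleukemic replicate 1 and 532 to 798 in preleukemic replicates 2 to 4. Tfrc had 28.2 to 39.8 in leukemic samples and 78.3 to 1590 in preleukemic samples. Nfe2 had 10.2 to 11.6 and 17.2 to 119, and Zfpm1 had 6.93 to 14.8 and 14.3 to 517. The levels of these 4 genes in preleukemic replicates 2 to 4 thus did not scale with Slc4a1. Gata2, which was under 1 FPKM in every sample, did not scale closely with it either. It had 0.121 to 0.197 in leukemic and 0.206 to 2.51 in preleukemic samples, a span of 20.8-fold.

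Against the globin gene Hbb-b1 the result was similar for some members and not for others. Epor spanned 2.06-fold per unit of Hbb-b1 over the 7 samples, Tal1 2.84-fold and Klf1 3.74-fold, but Gata1 spanned 8.78-fold. Per 100 FPKM of Hbb-b1, Klf1 had 0.454 to 0.724 in leukemic and 0.2615 to 0.979 in preleukemic samples. The groups thus overlapped for Klf1 against Hbb-b1, unlike against Slc4a1. For each of the 10 genes the lowest of the leukemic ratios to Hbb-b1 was that of leukemic replicate 2, which had the most Hbb-b1.

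**Figure D4:**
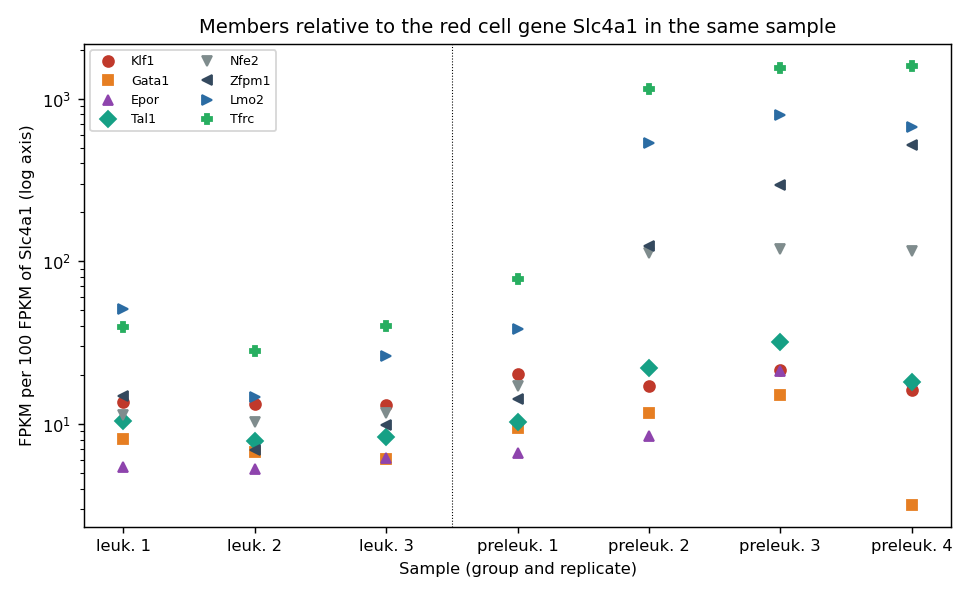
FPKM of 8 members per 100 FPKM of Slc4a1 in the same sample (log axis), by sample, with a symbol and color per gene. Klf1 stays between 13.2 and 21.5 in all 7 samples, while Tfrc, Lmo2, Zfpm1 and Nfe2 lie above 100 in preleukemic replicates 2 to 4 and at 51.2 or less in leukemic samples.

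Profiles were compared by the root mean square difference of standardized log2(FPKM + 1) values over the 7 samples. The median difference from Klf1 over all genes tested was 1.37, and the nearest genes lie below it by selection. Genes among the 5 most like Klf1 were Cldn13 (0.0464), Pklr (0.0485), Ermap (0.0485) and Rhd (0.0486). Of these, Cldn13, Ermap and Rhd encode membrane proteins of red cells and their precursors and stood in the list of late erythroblast genes, and Pklr encodes the pyruvate kinase of liver and red cells. The nearest to Gata2 were Cul4a (0.0729), AF251705 (0.0777), Tlcd1 (0.0805), Mpeg1 (0.0874) and Hagh (0.0946). Gata2 was under 1 FPKM and at 1 to 7 fragments per preleukemic sample, so its profile and nearest genes are uncertain. The nearest to Lmo2 were Rpl10a (0.0984), Fpr1 (0.101), Ear2 (0.111), Klhdc3 (0.122) and Mrps34 (0.127), among which are ribosomal genes and genes of granulocytes and macrophages. Among the nearest to Tfrc were Ranbp10 (0.106), Fcgr3 (0.122), Cd59a (0.124) and Adgre1 (0.13). No gene of the late erythroblast list was among the 5 nearest to Gata2, Lmo2 or Tfrc.

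The products of late red cell precursors moved in the same direction. Of 36 genes written for late erythroblasts, 32 were in the table and 31 were tested. Of these 30 were called higher and 0 lower, beside 8.47% and 6.26% of all genes tested, with a median log2 fold change of 4.19. Of the 32, 31 had leukemic values wholly above the preleukemic ones, as for 14.9% of all genes tested. Of the 30 called, 4 summed to under 10 FPKM in preleukemic samples and passed the filter through their leukemic values. Carbonic anhydrase Car1 (log2 fold change 5.42, limma adjusted p = 0.00819) and ankyrin Ank1 (3.47, limma adjusted p = 0.0167), which anchors band 3 to the membrane skeleton, were among the 30. The gene without a call, named after its values were seen, was Xpo7 (log2 fold change 0.96, limma adjusted p = 0.0512). Without preleukemic replicate 1, 28 were called, 16 without leukemic replicate 3, and without preleukemic replicate 2, 3 or 4, 2, 1 and 1.

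Genes of early progenitors were called in both directions. Of 18 such genes 11 were too low to be tested, and of the 7 tested 1 was called higher and 2 lower, beside 14.7% of all genes tested that were called in either direction, with a median log2 fold change of -0.04. Kit, the stem cell factor receptor of early progenitors and of the first erythroid stages, had 2.001, 3.07 and 5.28 FPKM in leukemic replicates 1 to 3, against 0.218 to 1.13 FPKM in preleukemic samples. It rose by 1.52 on the log2 scale (SE 0.32, adjusted p = 0.026 by limma). Kit summed to under 10 FPKM in preleukemic samples and passed the filter through its leukemic values. Myb (-0.46, limma adjusted p = 0.0412) and Erg (-0.85, limma adjusted p = 0.0225), which early progenitors share with B-cell precursors, fell. Cd34, named after its values were seen, was below 1 FPKM in all 7 samples. With preleukemic replicate 3 or 4 left out, 0 of the 7 were called (limma).

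Partners of the erythroid factors were called in both directions, more of them lower. Of 25 genes for chromatin and DNA-binding partners, all tested, 2 were called higher and 5 lower, beside 8.47% and 6.26% of all genes tested, with a median log2 fold change of -0.09. Klf3, a repressor whose gene KLF1 is known to activate, had 15.95, 23.2 and 23.3 FPKM in leukemic replicates 1 to 3, against 1.505 to 5.29 FPKM in the preleukemic group, and rose by 2.38 on the log2 scale (SE 0.33, adjusted p = 0.0109 by limma). Mafg, a small partner of NFE2 named after its values were seen, was the other gene called higher (log2 fold change 0.99, limma adjusted p = 0.0463). The 5 that fell were Cbfa2t3 (-0.98, limma adjusted p = 0.0287), a corepressor of the TAL1 complex that was named after its values were seen, and Tcf3 (-0.67), Runx1 (-0.61), Bach1 (-0.49) and Myb (-0.46), with limma adjusted p between 0.0167 and 0.0412. Tcf3, Runx1 and Myb also serve B-cell precursors. Without preleukemic replicate 1, 4 of the 25 were called, and with another preleukemic sample left out 1 or 2.

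Of 18 tested genes written for erythropoietin signaling, 1 was called, beside 14.7% of all genes tested. That gene was Kit, itself the receptor of stem cell factor and not of erythropoietin. It summed to under 10 FPKM in preleukemic samples and passed the filter through its leukemic values. The median log2 fold change of the list was -0.07. Most of its genes are shared with other cytokine receptors of B-cell precursors, among them the phosphatase gene Ptpn6 (134 ± 18.9 FPKM in 3 leukemic and 148 ± 14.7 in 4 preleukemic samples, limma adjusted p = 0.412). Of 16 genes of iron uptake and storage, beside Tfrc, 6 were called higher and 0 lower, with a median of 0.33. Of all genes tested, 8.47% were called higher and 6.26% lower. Among the 6, 2 genes, Tfr2 being 1 of them, summed to under 10 FPKM in preleukemic samples. These 2 passed the filter through their leukemic values. Ferritin heavy chain Fth1 rose to 945 ± 71.9 FPKM (SD, n = 3) over 460 ± 92.1 (SD, n = 4) in preleukemic samples (log2 fold change 1.06, SE 0.17, adjusted p = 0.0136 by limma). Tfr2, a transferrin receptor of liver and erythroid cells, rose to 7.19 ± 2.65 FPKM (SD, n = 3) over 2.44 ± 0.254 (SD, n = 4) (log2 fold change 1.20, SE 0.24, adjusted p = 0.0213 by limma). Of the iron list 4 genes were called without preleukemic replicate 1, and 1, 1 and 0 without replicate 2, 3 or 4 (limma).

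Markers of some other cell types moved with the same groups. Of 17 megakaryocyte and platelet genes, whose lineage shares Gata1, Tal1, Nfe2, Zfpm1 and Gfi1b, 6 were tested. Of these 5 were called higher, beside 8.47% of all genes tested. Of the 5, 4 summed to under 10 FPKM in preleukemic samples and passed the filter through their leukemic values. The list summed to 28.0 to 79.7 FPKM in leukemic and 7.34 to 9.12 FPKM in preleukemic samples. Pf4, a platelet chemokine, had 5.75, 14.5 and 11.8 FPKM in leukemic and at most 0.708 FPKM in preleukemic samples, with 0.348 FPKM in preleukemic replicate 1. Ppbp, another platelet chemokine, was at 1.23 FPKM in that sample, the highest of its group. In all, 8 of the 17 genes of the list were highest of their group there, a count given without its share over all genes. The list had 5 calls without preleukemic replicate 1, and had 3, 2 and 2 without replicate 2, 3 or 4. Over all genes the calls in the same fits were 932, 443, 271 and 149, against 1553 as reported. Of 17 mast cell, basophil and eosinophil genes, which include lineages that use Gata1 and Gata2, 13 were too low to be tested. The 4 tested, all called higher, each summed to under 10 FPKM in preleukemic samples and passed the filter through their leukemic values, so their count is not a result about the list. Among them was the eosinophil granule gene Prg2 (52.0, 18.8 and 19.3 FPKM in leukemic replicates 1 to 3, at most 4.52 FPKM in preleukemic samples). Of these, 3 were called without preleukemic replicate 1, and 2, 1 and 1 without replicate 2, 3 or 4. The sum of that list was 40.2 to 83.7 FPKM in leukemic and 2.86 to 12.5 FPKM in preleukemic samples. Prg2 and Ear2 (10.2, 10.6 and 9.25 FPKM in leukemic replicates 1 to 3) made up most of the leukemic sums. Only 8 of the 17 genes had leukemic values wholly above the preleukemic ones, beside 14.9% of all genes tested. The sum is thus not a result about each of these lineages.

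The macrophage list (17 genes, 13 tested, 8 called higher, 5 of which passed the filter through their leukemic values) summed to 63.7 to 318 FPKM in leukemic and 17.6 to 30 FPKM in preleukemic samples. The neutrophil list (15 genes, 14 tested, 7 called higher, 3 of which passed the filter through their leukemic values) summed to 1472 to 1835 FPKM in leukemic samples. In preleukemic samples it summed to 154 to 898 FPKM, with preleukemic replicate 1 the highest of its group there too. Of all genes tested, 8.47% were called higher. Without preleukemic replicate 1, 2 macrophage genes and 11 neutrophil genes were called, and without leukemic replicate 1 the numbers were 12 and 2. Without preleukemic replicate 2, 3 or 4, 1 macrophage gene and 0 neutrophil genes were called each time (limma). Of 6 tested endothelial genes, of 12 in the table, 1 was called higher and 1 lower, and of 9 tested genes of T and NK cells 0 were called (limma), with 3 at an unadjusted p under 0.05 and at most 2 called in another setting. The B-cell precursor list had 5 of 18 genes called lower and 0 higher, beside 6.26% and 8.47% of all genes tested. With each sample scaled to the same total 14 of the 18 were called. Under that scaling 2231 of all genes tested were called lower, against 660 as reported. No gene of the megakaryocyte, mast cell, macrophage, neutrophil, endothelial, T cell or B-cell precursor lists was at the floor in all 7 samples. The part of these cell types in the rise of the 10 genes was not tested.

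**Figure D5:**
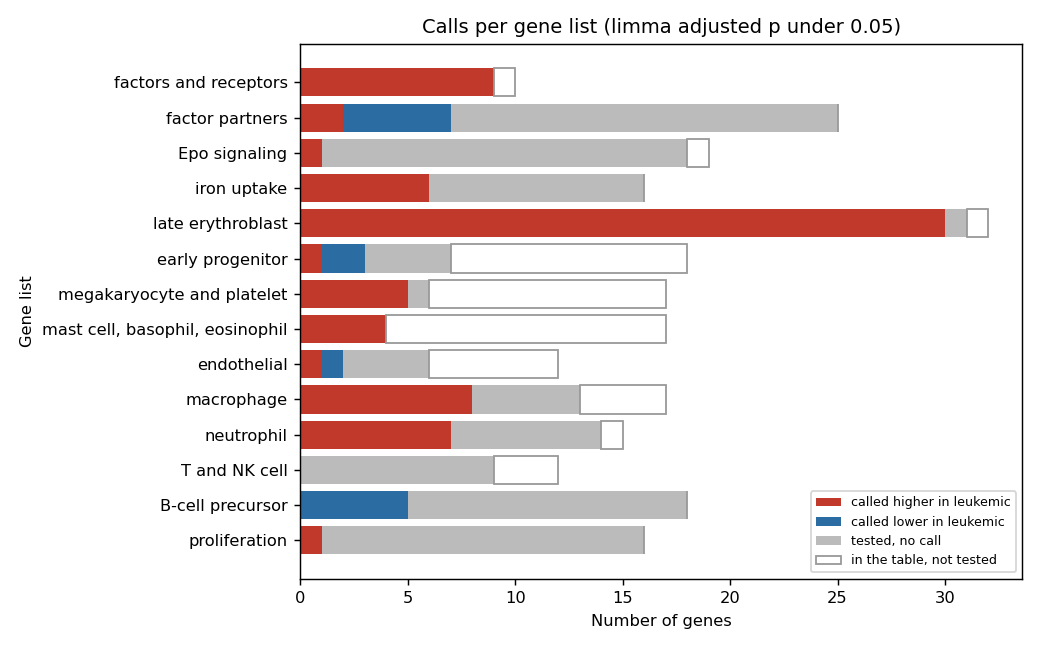
Number of genes per list that were called higher (red) or lower (blue) in leukemic samples, tested without a call (grey) or in the table but not tested (white), by limma at an adjusted p under 0.05. The 9 tested factors and receptors and 30 of 31 late erythroblast genes are red, while the partners, erythropoietin signaling and early progenitor lists are mostly grey or untested.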

How the data were processed

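RNA-seq values came from 3 leukemic and 4 preleukemic samples, mapped to groups and replicate numbers by their labels. The authors deposited FPKM per gene and sample, not counts, with a floor of 0.01. The submitters' processing notes name STAR 2.5.0b, bedtools 2.17.0, Cufflinks 2.2.1, Bowtie and DESeq2 on mm10, without their roles. FPKM is scaled for depth and length, so a count model was not used.

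From these values, log2(FPKM + 1) was fitted with limma 3.58.1 (R 4.3.3, intensity trend, no covariates) for the 10541 genes whose FPKM summed to 10 or more over the 7 samples, and p-values were adjusted by Benjamini-Hochberg. The filter of 10 and the threshold of 0.05 follow the study's methods, in which the sum is over counts. The fit was also run on simulated data in which no sample stood apart, and the outcome is not reported here. The labels do not say which mouse each sample came from, so p-values measure the spread between these samples, which may be technical. Between samples, at most 1 value above the floor was equal.

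Depth was read from 2243 genes with a single GENCODE transcript over 1500 bases, after taking 200 bases from each length. Between 80.5% and 87.1% of low values came within 0.15 of a whole fragment, against 30% for evenly spread values. The depth and the bases taken off were chosen to make this share largest, so its excess over 30% is not a test. Positions are those of the table on GRCm38, counted from 1. The 10 genes and all lists were chosen with earlier results of these data known. All members were to be named, with, per other list, the 3 highest by mean FPKM, the 3 with the lowest adjusted p, and the 5 nearest profiles of 4 members, of which some are not reported here. Alternatives were another pseudocount, filter, scaling and trend, a replicate block and each sample left out. The Gata2 fragments and the ratios to Slc4a1 and Hbb-b1 were added after the data were seen. Ratios were computed in Python 3.11.15. Figures were drawn with matplotlib 3.10.9.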

Additional observations from a re-analysis of the deposited data

Results flagged for a closer look

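In 4 of the 10 genes, and in 1 of the 2 ratios, a preleukemic sample lay farther from the others than Dixon's 95% limit for 4 samples allows, on the log2 scale used for the tests. Each time it was preleukemic replicate 1, above the other 3. Its gap to the next sample took 0.928 of the range in Epor, 0.915 in Klf1, 0.838 in Tal1, 0.832 in Gata1 and 0.865 in the Gata1 to Gata2 ratio. Chance alone passes this limit in about 1 of 20 groups, and these genes share the same sample, so the 5 are not independent. The same sample was the highest of its group in Gfi1b (0.79) and Nfe2 (0.669) without passing the limit. With it left out, the log2 fold changes of Epor, Klf1, Tal1 and Gata1 were 3.77, 4.86, 4.13 and 4.21.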

How the results depend on the processing

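In 124 refits of single members under the alternatives, all 124 log2 fold changes kept their direction and 45 were no longer called. The members called, 9 as reported, were 1 with no filter on low values and between 1 and 9 with each sample left out in turn. Genes called in the other lists, 76 as reported, were 14 with no filter, 49 with an FPKM sum of at least 70, and between 7 and 78 with each sample left out. With an FPKM sum of at least 70, Epor and Gfi1b were not tested and 7 members passed. The fit with the replicate block called 0 members, 0 genes of the lists and 0 of all genes (limma), with 9 members and 2429 genes at an unadjusted p under 0.05. Samples with the same number did not deviate together (correlations of 0.03, 0.05 and -0.09 over genes), so the numbers are not read as pairs. Over all genes, between 149 and 2917 were called under the alternatives other than the block, against 1553 as reported. Scaling each sample to the same total moved the median over all genes, as a log2 fold change, from -0.02 to -0.18, and quantile normalization to -0.06, with all 9 members called under both. The difference of the Gata1 to Gata2 ratio was between 2.77 and 3.68 and that of Epor to Tfrc between 1.72 and 2.96 under the alternatives, and neither passed under any of them. With a sample left out the exact permutation p was 0.0667 or 0.1, the smallest those designs allow, so these refits could not pass. The cause of these changes was not tested. At 1 to 7 fragments per preleukemic sample, depth limits what can be said of Gata2.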
